A study of Mus musculus with 93 samples.

Results

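Protein kinase A (PKA) is the main kinase that answers cyclic AMP. At rest it is a tetramer of a pair of regulatory subunits, which bind cyclic AMP, and a pair of catalytic subunits, which are held inactive until cyclic AMP frees them. Small heat-stable inhibitors of the PKI family bind the free catalytic subunit and carry it out of the nucleus. In cortical neurons the kinase acts on ion channels, on synaptic proteins and on the transcription factor CREB.

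The 9 genes described here were the mouse genes for these proteins, taken by name from both deposited tables of 24528 genes each: the regulatory subunits Prkar1a, Prkar1b, Prkar2a and Prkar2b, the catalytic subunits Prkaca and Prkacb, and the inhibitors Pkia, Pkib and Pkig. All 9 were present in both tables and all 9 passed the filter on low values, which kept 15780 genes at PND 5 and 12 months and 16887 genes at 18 months. No threshold on a measured value was part of the rule.

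RNA from 1 cortical hemisphere per mouse was sequenced for 93 mice of a C57BL/6J background. Chd8 V986*/+ mice (HET) carry a nonsense allele of the chromatin remodeler gene Chd8 in every tissue, inherited from the sire, and were compared with wild-type (WT) littermates. Dams ate oil or deltamethrin (DM), a pyrethroid insecticide, at 3 mg/kg in peanut butter every 3 days from conception, and dosing stopped at PND 22 for the mice kept to 12 months. At PND 5 there were 12 WT oil, 12 WT DM, 10 HET oil and 10 HET DM mice of both sexes from 13 litters. At 12 months there were 9 WT oil, 9 HET oil, 10 WT DM and 10 HET DM mice, all male, with 1 WT and 1 HET mouse from each of 19 litters. At 18 months there were 6 WT and 5 HET untreated males. The values were variance-stabilized levels on a log2 scale without counts, so the depth behind each value is unknown. An adjusted level below is a deposited value with the fitted effects of batch, sex, dissector and litter number taken out. Its zero point differs between genes, because those terms had already been removed gene by gene before deposit, so levels of 2 genes are not compared. A called gene is one whose limma p, adjusted across the whole table after Benjamini and Hochberg, was under 0.05.

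Chd8 itself was lower in HET mice by 0.61 (oil) and 0.69 (DM) on the log2 scale at 12 months, by 0.59 and 0.48 at PND 5 and by 0.51 at 18 months, with limma adjusted p from 2.11e-06 to 0.00467. In 1 PND 5 DM litter the female pair went against its labels: the library labelled WT had an adjusted Chd8 level of 11.79 and the library labelled HET had 12.46, whereas the other HET DM libraries reached at most 11.86. Both libraries were kept under their labels, and the PND 5 values without them are given below. In the 2 oil litters of batch 1 at 12 months, the 77 cytosolic ribosomal protein genes were on average 0.69 and 0.70 higher in the HET mouse, against -0.14 to 0.09 in the other 7 oil litters. The 5 astrocyte markers were 0.44 higher on average in the same 2 litters, against 0.03 in the other 7. Striatal neuron markers averaged -0.36 in these 2 litters, against -0.03 in the other 7, and inhibitory neuron markers -0.14 against -0.006. The part of these shifts in the PKA results was not tested. Without batch 1 the 12 month oil differences were -0.08 for Prkar1a, -0.04 for Prkar1b, -0.10 for Prkar2a, -0.09 for Prkar2b, -0.08 for Prkaca, -0.11 for Prkacb, -0.12 for Pkia, 0.05 for Pkib and 0.12 for Pkig, none of them called by limma.

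All 9 genes lie on the GRCm38 assembly, and the positions here are those of GENCODE M21. The regulatory genes are Prkar1a on chromosome 11 (109649405 to 109669656, plus strand), Prkar1b on chromosome 5 (139017306 to 139150001, minus strand), Prkar2a on chromosome 9 (108689314 to 108750436, plus strand) and Prkar2b on chromosome 12 (31958476 to 32061296, minus strand). The catalytic genes are Prkaca on chromosome 8 (83972993 to 83996443, plus strand) and Prkacb on chromosome 3 (146729574 to 146812990, minus strand). The inhibitor genes are Pkia on chromosome 3 (7366669 to 7445366, plus strand), Pkib on chromosome 10 (57631981 to 57741112, plus strand) and Pkig on chromosome 2 (163658386 to 163726158, plus strand). All are protein-coding and were measured over the whole gene, so isoforms were not told apart.

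RefSeq promoter windows on GRCm38.p6, each 300 bases long, were found for 8 of the 9 genes, 24 windows in all, some overlapping. The cyclic AMP response element TGACGTCA, the palindromic CREB motif, stood in 2 windows, both of Prkar1a, against 1.79% of the 32851 windows of all genes. Its half-site TGACG, on either strand, stood in 8 of the 24 windows, from 6 genes, against 20.8% of all windows. The half-site also matches inside every full element. Median GC content was 60.7% in the 24 windows and 52.7% in all windows. The part of base content in these shares was not tested. Windows of Prkar1a, Prkacb and Prkar2b are shown because the first pair varied most closely together among the 9 genes and Prkar2b was the member called between genotypes. These genes had 6, 3 and 2 windows. The one shown was picked first for holding the full element and then for the most CG pairs, so the element in the Prkar1a window was chosen. Each is written 5′ to 3′ on the strand of its gene, and capitals mark the element or its half-site (CGTCA on the reverse strand).
Prkar1a, chr11:109650699-109650998: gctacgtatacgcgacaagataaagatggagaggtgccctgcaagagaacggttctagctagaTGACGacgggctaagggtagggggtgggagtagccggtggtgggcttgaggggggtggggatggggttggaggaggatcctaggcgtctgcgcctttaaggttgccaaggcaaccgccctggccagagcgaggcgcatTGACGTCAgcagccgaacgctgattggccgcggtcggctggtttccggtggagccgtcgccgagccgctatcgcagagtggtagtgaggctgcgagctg
Prkacb, chr3:146812897-146813196: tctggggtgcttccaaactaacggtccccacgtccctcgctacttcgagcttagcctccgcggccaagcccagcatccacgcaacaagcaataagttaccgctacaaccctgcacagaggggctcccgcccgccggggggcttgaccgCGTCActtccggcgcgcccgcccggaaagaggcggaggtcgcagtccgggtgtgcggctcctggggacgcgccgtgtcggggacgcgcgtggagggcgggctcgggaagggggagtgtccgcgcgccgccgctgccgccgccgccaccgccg
Prkar2b, chr12:32061228-32061527: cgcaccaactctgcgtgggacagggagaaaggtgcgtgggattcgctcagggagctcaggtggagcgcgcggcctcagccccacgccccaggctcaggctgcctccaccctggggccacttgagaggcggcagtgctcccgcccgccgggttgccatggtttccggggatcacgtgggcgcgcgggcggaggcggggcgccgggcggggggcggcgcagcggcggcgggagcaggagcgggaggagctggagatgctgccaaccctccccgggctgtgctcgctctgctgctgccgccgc
The Prkar1a window held 1 full element and 1 further half-site, the Prkacb window held 1 half-site, and these letters did not occur in the Prkar2b window. A match describes the letters and is not a measured binding site.

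The first comparison asked which PKA genes differed between HET and WT cortex at 12 months. In oil mice 7 of the 9 genes were lower in HET mice and 2 were higher, but none passed the limma test over all genes, in which 1.77% of genes were called. In DM mice 6 were lower and 3 higher, and Prkar2b alone passed, where 3.56% of genes were called. The median difference of the 9 genes was -0.09 in both exposures, beside -0.01 for all genes tested in each.

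Prkar2b encodes RIIβ, the regulatory subunit that is abundant in brain and fat. Its adjusted log2 level in 12 month WT DM mice was 14.93 at the lowest, 15.07 at the median and 15.17 at the highest, and in HET DM mice it was 14.81, 14.94 and 15.05. The HET mice sat lower and the groups overlapped. The difference over the mice of 10 litters was -0.15 ± 0.04 (SE, limma adjusted p = 0.0153), which puts HET mice at 90.4% of the WT level. This SE and p come from the fit to all 82 libraries, which has no litter block. In oil mice the adjusted levels ran from 14.97 to 15.22 in WT and from 14.78 to 15.03 in HET mice, and the difference of -0.13 ± 0.04 did not pass (limma adjusted p = 0.0566). Within litters the HET mouse was lower in 8 of 10 DM litters and in 8 of 9 oil litters. Without batch 1 the DM difference was -0.13 and was no longer called, and the call was also lost without batch 2 and without batch 3.

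Prkar1a encodes RIα, the regulatory subunit made in nearly all cells. In 12 month oil mice its adjusted log2 level ran from 13.18 to 13.34 in WT, with a median of 13.20, and from 12.80 to 13.23 in HET mice, with a median of 13.12. The 2 lowest HET mice came from the batch 1 litters, and their litter differences averaged -0.36, against -0.08 in the other 7 oil litters. The fitted difference was -0.14 ± 0.04 in oil (limma adjusted p = 0.0552) and -0.09 ± 0.04 in DM mice (limma adjusted p = 0.156). Prkar2a, which encodes RIIα, differed by -0.09 in both exposures, with the HET mouse lower in 9 of 9 oil and 8 of 10 DM litters. Prkar1b, which encodes the neuronal RIβ subunit, had no common direction: -0.07 in oil and 0.02 in DM mice.

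Prkacb and Prkaca encode the catalytic subunits Cβ and Cα. Prkacb had an adjusted log2 level of 13.90, 14.05 and 14.22 (lowest, median, highest) in 12 month WT oil mice and of 13.60, 13.92 and 14.05 in HET oil mice. It was lower in the HET mouse of all 9 oil litters and of 8 of 10 DM litters, with differences of -0.16 ± 0.05 and -0.12 ± 0.05 (limma adjusted p = 0.0788 and 0.140). The batch 1 oil litters again lay apart, at a mean of -0.35 against -0.11 in the other 7. Cell markers moved in the same litters. The mean of the 5 excitatory neuron markers was also lower in the HET mouse of all 9 oil litters (-0.06 on average) and of 6 of 10 DM litters (-0.01). That of the 5 mature oligodendrocyte markers was lower in 7 of 9 oil litters (-0.09) and 6 of 10 DM litters, where it averaged 0.04. That of the 8 striatal neuron markers was lower in 6 of 9 oil (-0.10) and 7 of 10 DM litters (-0.14). The astrocyte mean was higher in 7 of 9 oil and 9 of 10 DM litters. The part of these markers in the values of the PKA genes was not tested. Prkaca was lower in all 9 oil litters and in 7 of 10 DM litters, at -0.09 and -0.07.

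The inhibitors did not share a direction. Pkia, whose protein PKIα is the classical inhibitor of brain and muscle, differed by -0.09 in oil and -0.11 in DM mice, and was lower in the HET mouse of 15 of 19 litters. Pkig, which encodes the widely expressed PKIγ, went the other way. Its adjusted log2 level was 8.74, 9.10 and 9.45 (lowest, median, highest) in WT oil and 9.03, 9.37 and 9.72 in HET oil mice, then 8.81, 9.13 and 9.38 in WT DM and 9.17, 9.33 and 9.62 in HET DM mice. It was higher in the HET mouse of 16 of 19 litters, by 0.23 ± 0.09 in oil and 0.24 ± 0.08 in DM mice, without passing the test (limma adjusted p = 0.139 and 0.0823). Litter differences of Pkig were widest in oil mice, from -0.32 to 0.83, and averaged 0.62 in the 2 batch 1 litters against 0.12 in the other 7. Pkib, the remaining inhibitor, differed by 0.07 and 0.03, less than its SD over litters of 0.12 in each exposure. In oil mice the SD over litters also exceeded the difference for Pkia (0.12) and Pkig (0.33). In DM mice it did not, at 0.10 for Pkia and 0.18 for Pkig.

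**Figure D1:**
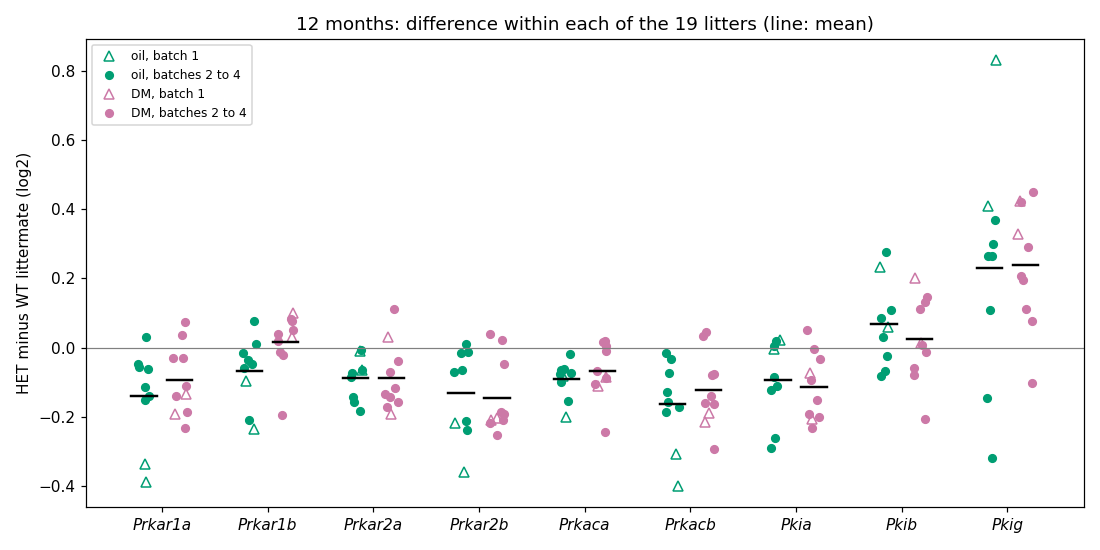
Difference in log2 level between the HET mouse and its WT littermate at 12 months, for each of the 9 genes, in 9 oil litters (green) and 10 DM litters (pink). Open triangles are batch 1, filled circles batches 2 to 4 and black lines the means. Prkacb lies below 0 in 17 of 19 litters and Pkig above 0 in 16 of 19, and the batch 1 oil litters are the lowest 2 of all for Prkar1a and Prkacb and the highest 2 of the oil litters for Pkig.

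The mice came as littermate pairs, so the fit was repeated with each litter as a block. With 12 month mice alone and the litter block, Prkacb was called in oil mice (-0.16, limma adjusted p = 0.0460, 1.83% of genes called) and Prkar2b in DM mice (limma adjusted p = 0.0423, 4.3% of genes called). Without batch 1 neither was called: Prkacb was at -0.11 (limma adjusted p = 0.229) and Prkar2b at -0.13 (limma adjusted p = 0.0876). With the litter block in the fit of both ages, 6 members were called in oil and 7 in DM mice, beside 15.1% and 14.3% of all genes. That fit, like the fit without a block, shares 1 estimate of the spread between PND 5 pups and 12 month mice. The 12 month adjusted levels are those of bulk tissue, in which fewer cells of a type and less RNA per cell cannot be told apart.

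The exposure groups at 12 months held different mice from different litters, and their genotype differences were next averaged, a comparison chosen after the data had been seen. Over the 19 litters and with the litter block at 12 months alone, 7 of the 9 genes were called, beside 22.9% of all genes. Prkacb fell by 0.14 (SE 0.03, limma adjusted p = 0.00291), Prkar2b fell by 0.14 (0.00400), Prkar1a fell by 0.12 (0.00939), Pkia fell by 0.10 (0.0118), Prkar2a fell by 0.09 (0.0113) and Prkaca fell by 0.08 (0.0109), each given with its limma adjusted p. Pkig rose by 0.24 (SE 0.06, limma adjusted p = 0.00814). Prkar1b and Pkib did not pass, at -0.03 and 0.05. Without batch 1 the same fit called 4 members, Prkar2a, Prkar2b, Prkacb and Pkia, beside 8.56% of all genes, and Pkig stood at 0.16 (limma adjusted p = 0.0675). Without a block 6 members were called, all those above except Prkar2a, beside 16.2% of all genes.

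The interaction of exposure and genotype asked whether the genotype difference depended on DM. It was called for 0 of the 9 genes and 0 of 15780 genes at 12 months in limma, with 421 genes at an unadjusted p under 0.05. For DM against oil itself at 12 months, limma called 0% of genes in WT mice (530 genes at an unadjusted p under 0.05) and 0.00634% in HET mice, with no member among them. Differences of the 9 genes lay between -0.05 and 0.06 in WT and between -0.0012 and 0.03 in HET mice.

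The same genotype comparison at PND 5 gave differences between -0.05 and 0.07 in oil and between -0.03 and 0.07 in DM pups. No member was called, beside 0.558% and 0.234% of genes, and the smallest unadjusted p over the 18 values was 0.178, for Pkia in oil pups. Without the female pair whose Chd8 levels went against the labels (litter B), the DM differences of the 9 genes lay between -0.04 and 0.06, and that of Chd8 was -0.60. Whether the genotype difference changed with age was tested directly in oil mice, and no member passed: Prkacb, at -0.16 between the ages, had a limma adjusted p of 0.591 and Pkig, at 0.16, one of 0.648.

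At 18 months no member was called, beside 0.142% of genes. Pkig had deposited levels of 9.81, 9.88, 9.94, 9.92 and 9.98 in the HET males and of 9.93 to 10.16 in the WT males, with a WT median of 10.03. The HET males were mostly lower and the groups overlapped. The difference of -0.14 ± 0.04 did not pass (limma adjusted p = 0.219) and had the opposite sign to that at 12 months. Pkib had deposited levels of 8.93 to 9.07 in HET and 8.86 to 8.98 in WT males, a difference of 0.10 ± 0.04 (limma adjusted p = 0.293). The other 7 genes differed by -0.07 to 0.04. Prkacb, at -0.03 ± 0.03, and Prkar2b, at 0.03 ± 0.04, were close to 0. The 12 and 18 month mice stand in tables normalized apart, and the difference between the ages was not tested.

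**Figure D2:**
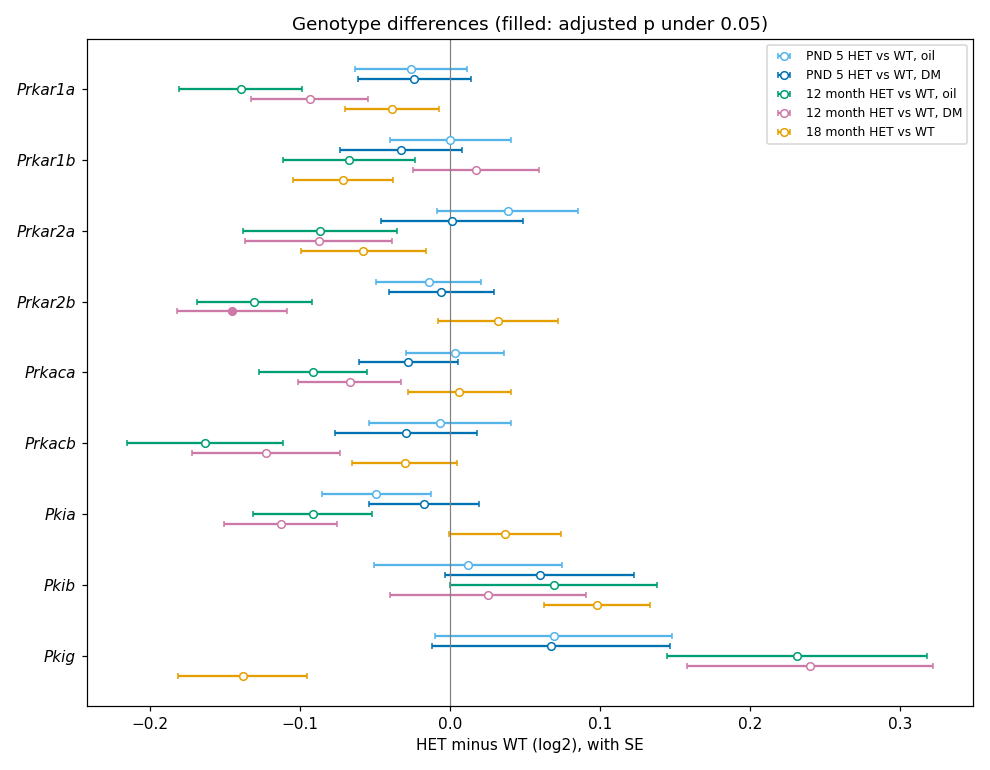
Fitted HET minus WT difference (log2, points) with its standard error (bars) for the 9 genes in 5 comparisons. A filled point passed the adjusted p threshold, which Prkar2b in 12 month DM mice alone did. Pkig lies at 0.23 and 0.24 at 12 months and at -0.14 at 18 months.

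DM exposure at PND 5 was compared with oil within each genotype. In WT pups Pkia and Prkar2b were lower with DM and were called by limma, beside 8.19% of genes. The adjusted log2 level of Pkia was 18.45, 18.59 and 18.76 (lowest, median, highest) in WT oil and 18.35, 18.45 and 18.62 in WT DM pups, a difference of -0.14 ± 0.04 (limma adjusted p = 0.0110). That of Prkar2b was 16.97, 17.07 and 17.13 in WT oil and 16.85, 16.91 and 17.13 in WT DM pups, a difference of -0.11 ± 0.03 (limma adjusted p = 0.0397). Both directions rest on the technical terms in the model: with groups alone Pkia was at 0.22 and Prkar2b at 0.25 in WT pups, and both at 0.20 in HET pups, without a call. Neither gene was called in WT pups under either quantile normalization. In HET pups, where 1.91% of genes were called, the same genes differed by -0.11 and -0.10 and were not called (limma adjusted p = 0.112 and 0.133). Pkig was 0.20 higher in WT and 0.19 higher in HET pups without passing. The exposure was given to the dam, so the litter is the unit: with litters as a random effect, limma called 0% of genes in WT pups (2404 genes at an unadjusted p under 0.05), and Pkia and Prkar2b had limma adjusted p of 0.118 and 0.213. Without the litter B female pair Prkar2b was not called in WT pups (limma adjusted p = 0.0922).

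Markers of other cells also moved with DM at PND 5. All 8 striatal neuron markers were higher in DM pups of each genotype, with medians of 0.12 in WT and 0.45 in HET pups, and 4 of them, among them Penk and Adora2a, were called in HET pups. Of the 5 inhibitory neuron markers, Slc32a1 and Sst were called higher in both genotypes and Gad2 in HET pups, while Pvalb was called lower in WT pups (-0.29). Of the 77 ribosomal protein genes 69 were lower in WT DM pups, with a median of -0.19. These marker calls come from the fit without litters, which called 8.19% of all genes in WT and 1.91% in HET pups. With litters as a random effect, limma called 0% of genes in WT pups, so no WT marker stayed called. In HET pups that fit called 4 of all genes. The part of the marker shifts in the values of Pkia and Prkar2b was not tested.

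The widest differences among the 9 genes were between ages. Between PND 5 and 12 month WT oil mice all 9 were called, beside 78.2% of all genes, so a call by itself sets none of them apart. Prkar1b rose by 0.88 and Prkar1a by 0.78 on the log2 scale, while Prkar2a fell by 0.72 and Prkar2b fell by 1.99, the latter reaching 0.03 in the other direction under quantile normalization. Among the inhibitors Pkib rose by 1.66 and Pkig by 0.33, whereas Pkia fell by 2.08, a direction that also flips under quantile normalization. The catalytic gene Prkacb rose by 0.30 and Prkaca by 0.12, values that ran from 0.15 to 1.33 and from 0.06 to 0.62 over the alternatives. Adjusted levels of 7 of the 9 genes did not overlap between the ages, as was the case for 54.2% of all genes, and those of Prkaca and Pkig did. These sizes rest on the model, because batch, sex, dissector and litter number differ between the ages and the deposited values had been stripped of them: with groups alone in the model, Pkia fell by 0.77 and Prkar2b by 0.73. Quantile normalization gave 0.56 for Pkia, and Prkar2a was then at -0.06 and not called. The 6 genes that rose kept their direction under median centring and both quantile normalizations, though Prkaca was not called after median centring (0.06). Cell markers also differed between the ages: all 5 mature oligodendrocyte markers were called higher, at a median of 5.47, as were all 5 microglia markers (1.98) and all 5 inhibitory neuron markers (1.94), and all 3 markers of oligodendrocyte precursors were called lower (-0.52). Their part in the PKA values was not tested.

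**Figure D3:**
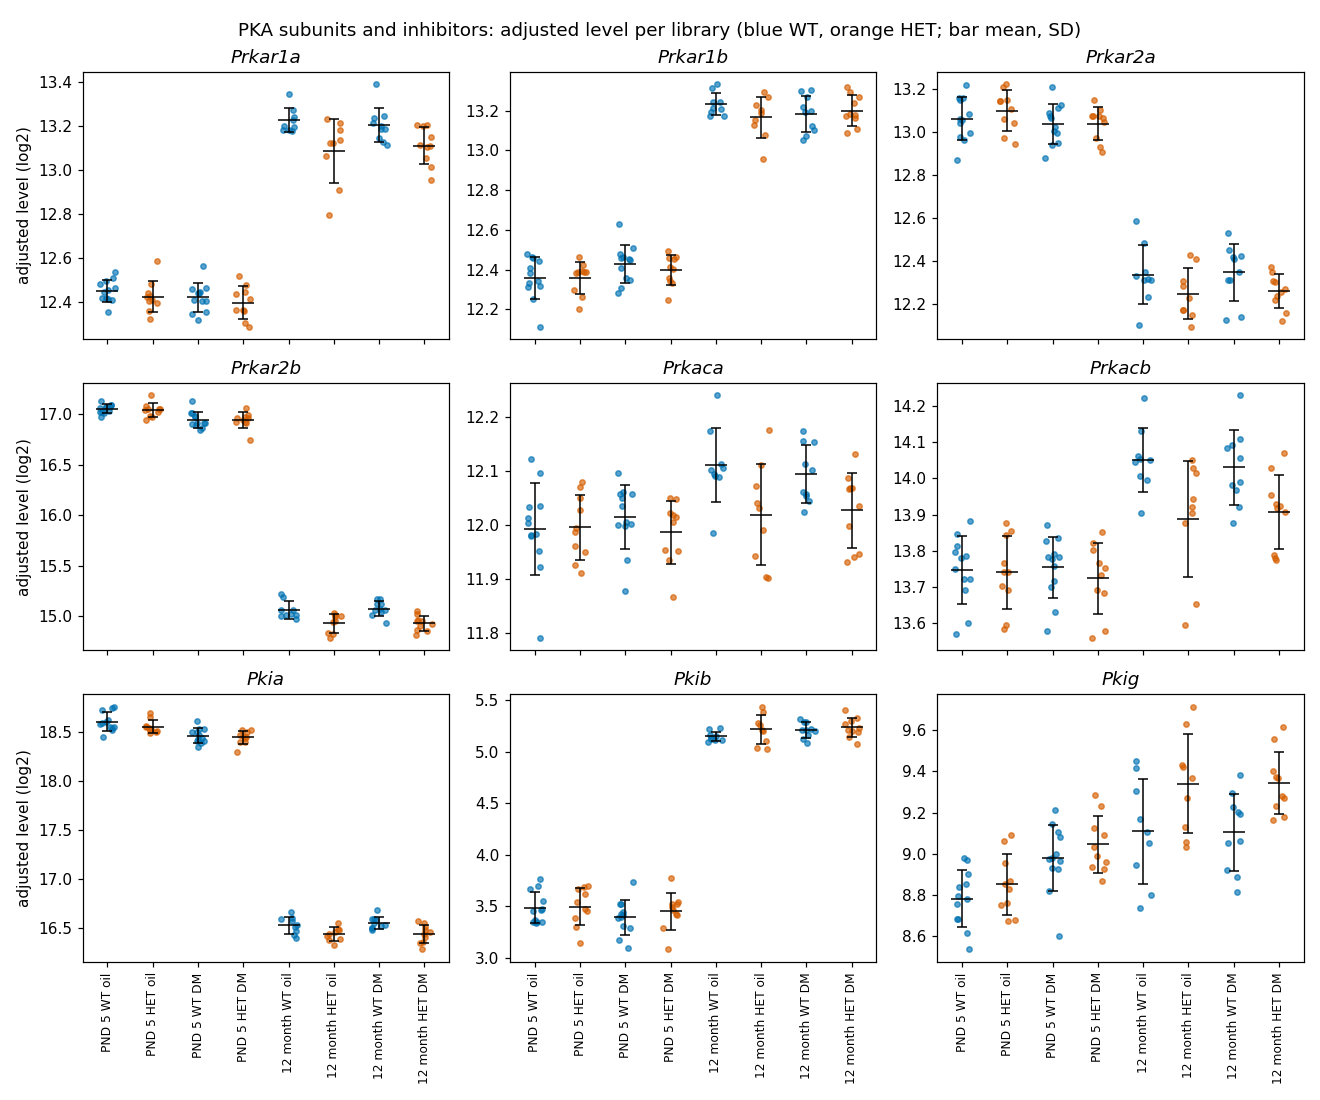
Adjusted log2 level of each gene in each of the 82 PND 5 and 12 month libraries (points, WT blue and HET orange), with group means and SD (bars). Each panel has its own axis, and levels are not comparable between genes. Prkar2b and Pkia differ by -1.99 and -2.08 between 12 months and PND 5 in WT oil mice, directions that flip under quantile normalization, and Pkib differs by 1.66. The WT and HET groups of 1 age and exposure overlap.

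After groups and technical terms were fitted, the residuals of the 9 genes over the 82 libraries described how they varied from mouse to mouse. These correlations share library depth and composition and are given without a test. Prkar1a and Prkacb were the closest pair, with a Pearson r of 0.89, and the regulatory and catalytic genes were positively related in all 15 pairs among them, down to 0.36 for Prkar1b with Prkar2b. Pkig was negatively related to all 6 subunit genes, from -0.24 with Prkar1b to -0.65 with Prkacb. Pkia stood between, at 0.42 with Prkar2b and -0.22 with Prkaca. The genes most like Prkar2b over the 82 libraries were Vopp1, Tomm70a and Cul3, with r of 0.87, 0.85 and 0.85.

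**Figure D4:**
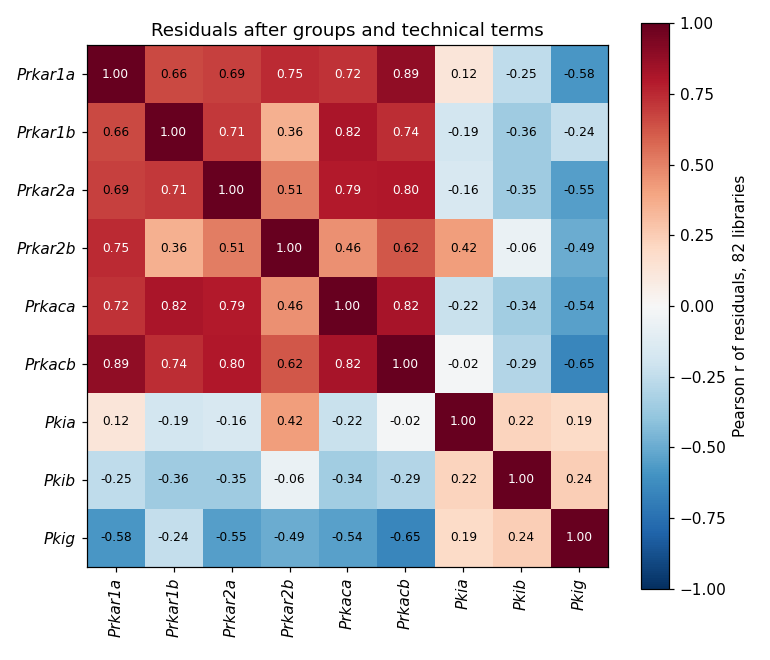
Pearson correlation of the residuals of the 9 genes over 82 libraries, from -1 (blue) to 1 (red). The 6 subunit genes form a positive block and the Pkig row is negative against each of them.

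The rest of the cyclic AMP pathway was read from 8 lists of 85 genes in all, of which 81 were tested at PND 5 and 12 months. At 12 months 1 of the 81 (1.23%, beside 1.77% of all genes) was called in oil mice, Gnai1, which encodes an inhibitory G protein alpha subunit (-0.16 ± 0.04, limma adjusted p = 0.0172). In DM mice 2 were called (2.47%, beside 3.56%): Hcn3, a member of the HCN channel family, at 0.23 ± 0.06 (limma adjusted p = 0.0332), and Arpp21, a phosphoprotein that PKA phosphorylates, at -0.15 ± 0.05 (limma adjusted p = 0.0491). Adenylyl cyclases, phosphodiesterases, anchoring proteins, CREB factors and CREB target genes had no called member in either of these fits. With the litter block at 12 months alone, 0 of 81 were called in oil mice, beside 1.83% of all genes, and Gnai1 had a limma adjusted p of 0.0520. In DM mice that fit called 3 of 81 (3.7%), beside 4.3% of all genes. In the averaged comparison with that block 19 of the 81 were called, 5 higher and 14 lower, or 23.5% beside the 22.9% of all genes, and without batch 1 it called 5 of them, 6.17% beside 8.56%. Without batch 1 and without a block, Gnai1 was at -0.12, Hcn3 at 0.21 and Arpp21 at -0.12, none of them called. The median over the 81 genes was -0.0011 in oil and -0.03 in DM mice, beside the -0.01 of all genes. At 18 months 0 of 83 were called in limma, beside 0.142% of all genes. At PND 5, 0 of 81 were called in either exposure, beside 0.558% of all genes in oil and 0.234% in DM pups.

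With DM at PND 5, 3 of the 81 pathway genes (3.7%) were called in each genotype, beside 8.19% of all genes in WT and 1.91% in HET pups. With litters as a random effect 0 of the 81 were called in either genotype, and limma adjusted p of the genes below ran from 0.0767 to 0.234. Gnaz, an inhibitory G protein subunit, was higher in WT (0.29 ± 0.06) and HET pups (0.24 ± 0.07). Akap7, an anchoring protein that binds the regulatory subunits, was lower in both (-0.11 ± 0.04 and -0.16 ± 0.04), a direction that flips to 0.26 and 0.16 with groups alone in the model. Arpp19, a phosphatase regulator, was lower in WT pups (-0.12 ± 0.03), and Ppp1r1b, the DARPP-32 gene of striatal neurons, was higher in HET pups (0.46 ± 0.13). Both genotype columns are compared with oil pups of their own genotype. Between the ages 68 of the 81 were called, 84.0% beside 78.2% of all genes, 47 higher and 21 lower at 12 months. Among all genes 6198 were called higher and 6139 called lower, and 49.4% of those tested were lower, called or not. Of the CREB target immediate early genes 10 of 11 rose, led by Arc (4.49) and Egr1 (3.37), and 11 of 16 phosphodiesterases rose, among them Pde7b (2.62) and Pde8b (2.11). Of the anchoring proteins 6 rose and 6 fell, with Akap7 at -2.11 and Akap5 at 1.19, and 5 of 7 G protein subunits fell, with Gnai3 at -1.91. These sizes depend on the model as those of the PKA genes do: with groups alone, 53 of the 81 were called (65.4%, beside 45.3% of all genes), and Arc was at 1.66, Egr1 at 1.36, Pde7b at 1.02, Akap7 at -0.81 and Gnai3 at -0.67. Quantile normalization gave 1.77 for Arc, -0.76 for Akap7 and -0.61 for Gnai3.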

How the data were processed

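The authors made the deposited log2 values with the variance-stabilizing transformation of DESeq2, from Salmon estimates of reads trimmed with cutadapt 1.12 and aligned with STAR 2.5.2b to mm10, and then removed batch terms with limma. In the PND 5 and 12 month table every gene had a slope of 0 (at most 4.38e-14) on the numbers of batch and litter, on sex and on dissector, so the fits reported keep these terms. Given these terms, their earlier removal does not alter a fitted difference between groups, whereas a fit with groups alone gives other values. The model was limma 3.58.1 in R 4.3.3 over 82 libraries: 8 groups, batch, sex, dissector and litter number, with no block. At 18 months it held genotype and litter rank over 11 libraries. Genes were kept when at most 1 of 38 pairs of same-sex littermates (6 at 18 months) had identical values. Calls were at an adjusted p under 0.05 (Benjamini-Hochberg).

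Litters come from the labels: residuals of littermates had a median correlation of 0.18, against -0.03 for other mice of the same age. Only the fit of both ages without a block was tried on simulated data, for 1 comparison and with mice simulated as independent. The outcome is not given here. The fits with a litter block or random effect and the fit of the oldest mice were not tried in this way. The text names the 9 members, Chd8, at most 4 called genes per pathway or marker list and comparison, and the 3 genes most like a member called between genotypes. The members, lists and tests were chosen with earlier results of these data known. Depth per library was not given in the sources used here. In the fits without a block p-values measure the spread between mice, with littermates counted as independent mice. With the litter block they measure the spread within litters, and the random-effect fit allows for a correlation between littermates. Promoter windows are from RefSeq, and no amino acid sequence was used here. Alternatives were a litter block, each age alone, other terms, filters and scalings, and leaving out batches, 1 sex or 1 library.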

Additional observations from a re-analysis of the deposited data

Results flagged for a closer look

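Of 112 groups of 4 to 10 values that were examined, 7 held a sample far from the others, and chance flags about 1 in 20. In the PND 5 DM litters the HET minus WT difference of Chd8 was 0.67 in the litter B females, against -0.83 to -0.50 in the other pairs. Among 12 month WT DM mice the adjusted level of Prkar1a was 13.39 in replicate 3, against 13.11 to 13.25 in the rest. In litter L of the 12 month DM mice, the HET minus WT difference was -0.24 for Prkaca, against -0.11 to 0.02 in the other litters. The same litter had -0.19 for Prkar1b, against -0.02 to 0.10. Among PND 5 HET DM pups the adjusted level of Prkar2b was 16.74 in the male replicate 3, against 16.92 to 17.06, and its difference from the WT male of its litter was -0.28, against -0.07 to 0.08 in the other pairs. At 18 months the deposited level of Prkar1a was 14.41 in HET replicate 3, against 14.47 to 14.49 in the other HET males.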

How the results depend on the processing

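Of 642 recomputed member values, 559 kept their direction and their side of the threshold, 34 lost a call, 41 gained one and 8 changed sign. In 12 month oil mice the count of members called, 0 without a block, was 6 with the replicate block over both ages, 4 for the age alone, 3 without batch 3, 2 with a mean of at least 6, with median centring or with quantile normalization of the adjusted levels, and 1 with the block at that age alone, an intensity trend, quantile normalization or sample weights. In DM mice the count of 1 became 7 with the block over both ages, 3 for the age alone, 2 without the batch 1 oil litters, and 0 with groups only, without batch 1, 2 or 3, or with the block and no batch 1. The 1 call in oil mice with the block at that age alone was also lost without batch 1. The share of all genes called moved with the setting too. In oil mice it was 1.77% without a block, 15.1% with the block over both ages and 1.83% with the block at that age alone. In DM mice these shares were 3.56%, 14.3% and 4.3%. For DM at PND 5 in WT pups the share was 8.19% without a block and 0% with the random-effect block. Counts given without a share do not set the members apart from other genes. For DM at PND 5 in WT pups the count of 2 became 3 for the age alone and with sample weights, 1 without batch 1 or without the litter B females, and 0 with the random-effect block, batch as a number, groups only, either quantile normalization, no batch 2 or no batch 3, or 1 sex alone; in HET pups the count of 0 became 2 for the age alone and with sample weights. With groups only, Pkia and Prkar2b with DM at PND 5 changed sign, to 0.22 and 0.25 in WT and 0.20 and 0.20 in HET pups. In the age comparison Pkia was 0.56 after quantile normalization and 0.65 after that of the adjusted levels, and Prkar2b was 0.028 after the former. Pkib in 12 month DM mice was -0.0027 with sample weights. The cause of these changes was not tested. The averaged comparison, the litter B, batch 1 oil, tie-free and adjusted-level quantile settings were chosen after seeing the data. At 18 months leaving out 1 library at a time left 0 members called. Pkib was missing under a mean of at least 6. Depth is unknown, so its limit on small differences could not be set.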
